A study of Canis lupus familiaris with 20 samples.

Results

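Retinas of dogs without a working cone channel were compared with retinas of dogs with normal cone function, in eyes that had received an injection of saline only. The comparison took all 10 arrays of phosphate-buffered saline (PBS) eyes, 5 from CNGB3-mutant dogs and 5 from normal dogs, out of 20 arrays in the series. The other 10 arrays came from the opposite eyes of the same dogs, which had received 12 µg of ciliary neurotrophic factor (CNTF) into the vitreous. Retinas were collected 1 week after injection, and total RNA was hybridised in a single colour to an Agilent canine array of 60-base probes.

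The mutant dogs were homozygous for the D262N missense allele (CNGB3m/m), 2 of them male and 3 female, and were aged 10.7 to 11.5 weeks in the sample labels. The normal dogs were 5 males aged 8.9 weeks in the labels, of which 4 were carriers (CNGB3+/m) and 1, normal dog 3, was CNGB3+/+. The study's description gives about 11 months for both groups, and this difference from the labels was not resolved. By the labels, age followed genotype completely, so the 2 cannot be told apart, and all female dogs were mutants. All dogs came from 1 research colony. Both groups carried a CNTF injection in the other eye, and no uninjected eye was included. Each array was 1 dog, and the numbers 1 to 5 name different dogs in the 2 genotypes.

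CNGB3 encodes the modulatory subunit of the cyclic nucleotide-gated cation channel of the cone outer segment, and CNGA3 encodes the pore-forming subunit. In the dark, cyclic GMP holds this channel open. Light activates a cone opsin, which acts through the cone transducin (GNAT2, GNB3, GNGT2) on the cone phosphodiesterase (PDE6C, PDE6H), and the fall in cyclic GMP closes the channel. Loss of either subunit causes achromatopsia, also called day blindness in dogs, while rods use separate proteins such as GNAT1, PDE6A, PDE6B, CNGA1 and CNGB1.

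Probes entered the comparison when they were not controls and were well above background on at least 4 of the 5 arrays of either group. Of 43603 distinct probes, 29036 met this rule, and 29012 of those had enough values for a test. They named 10167 genes. Levels are given as log2 signal relative to the 75th percentile of the same array, so 0 is that percentile and each unit is a doubling. Differences are mutant minus normal on that log2 scale. A probe was called at an adjusted p under 0.05 (limma, Benjamini-Hochberg over all 29012 probes).

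The mutant arrays were dimmer. On the normal arrays the 75th percentile ran from 453.9 to 592.5 units of intensity, and on the mutant arrays from 291 to 526.3, a log2 difference of -0.39 (exact permutation p = 0.0397, two-sided). Between 66.82% and 71.62% of probes were well above background on normal arrays and between 60.24% and 65.98% on mutant arrays, with no overlap (exact permutation p = 0.00794, the smallest that 5 against 5 allows). Component 1 of a principal component analysis took up 52.3% of the spread, with mutant array 2 at its low end (-108.4) and normal array 3 at its high end (67.7). Normal array 1 lay among the mutant arrays, at -7.2, while the other normal arrays lay at 24.4 or higher. Slide 1 held normal arrays 1 to 4, slide 2 held normal array 5 with mutant arrays 1 to 3, and slide 3 held mutant arrays 4 and 5, so slide followed genotype except on slide 2. The labelled sexes were borne out by KDM5D, a Y-linked histone demethylase. It read 0.54 to 0.67 in the normal dogs, 0.55 and 0.60 in the male mutants and -1.90 to -1.15 in the female mutants.

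Of the 29012 probes, 8 (0.0276%) were called, 3 of them (0.0103%) higher and 5 (0.0172%) lower in mutant retina. The higher probes read MAL, CCSER2 and an unnamed transcript on chromosome 10. MAL is a membrane proteolipid of raft-rich membranes and compact myelin. The lower probes carried the descriptions LRRC17, S100A12 and a prostaglandin E2 receptor EP3 form, or no usable description. No gene was called through its highest-signal probe (0 of 10167), although 34.9% of all probes had an unadjusted p under 0.05, 20.5% higher and 14.4% lower. Groups without overlap were seen for 5.45% of probes, 3.14% higher and 2.31% lower. The adjusted p values were crowded just past the threshold: 37 probes passed at 0.07 and 5027 (17.3%) at 0.1.

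Some of the probes named in the text are printed. Where probes of a gene disagreed, as for CCSER2, the position of a probe is part of the result. Of the probes printed, CCSER2 probe 1 and the LRRC17-described probe were called. Positions are those of the array files on the canFam2 assembly. No annotation of that assembly was used here, so exons and untranslated regions are not assigned. Each probe printed was mapped by the array design over a span longer than 60 bases, as a probe across a splice junction is. The pair for CCSER2 is shown first, and capitals mark the 57 bases that both probes share. The other 3, of MSRB3, of the transcript described as LRRC17 and of the cone arrestin ARR3, are in lower case throughout.
CCSER2 probe 1, chr4:35909895-35925284, plus strand: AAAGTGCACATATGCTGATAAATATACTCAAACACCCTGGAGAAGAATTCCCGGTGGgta
CCSER2 probe 2, chr4:35909892-35925281, plus strand: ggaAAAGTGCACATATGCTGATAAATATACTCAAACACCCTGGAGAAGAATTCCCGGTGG
LRRC17-described, chr18:20093686-20097308, minus strand: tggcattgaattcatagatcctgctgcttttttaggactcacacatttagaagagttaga
MSRB3, chr10:11014127-11024090, plus strand: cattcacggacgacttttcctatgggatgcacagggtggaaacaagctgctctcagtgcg
ARR3, chrX:57655235-57656851, plus strand: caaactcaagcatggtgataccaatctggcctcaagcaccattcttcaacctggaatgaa

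MAL (A_11_P0000019969, chr17:38086234-38086293) read -1.84, -2.04, -2.48, -2.82 and -1.57 in normal dogs 1 to 5 and -0.71, -0.33, -0.60, 0.07 and -0.01 in mutant dogs 1 to 5. Every mutant lay above every normal. The difference was 1.83 ± 0.25 (SE), adjusted p = 0.0448. A second MAL probe, starting 7 bases further along at chr17:38086241, gave 1.94 ± 0.29, again with no overlap, but missed the threshold (adjusted p = 0.060). On slide 2 alone, which carries a single normal array, the difference of the called probe was 1.03. The CNTF eyes of the same dogs gave 1.00 ± 0.30, where the groups overlapped and no call was made (adjusted p = 0.598).

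CCSER2, a coiled-coil serine-rich protein, was measured by 4 probes that fell into 2 pairs. Its called probe, the first sequence above, read -1.44 to -1.26 in the normal dogs and -0.69 to -0.43 in the mutants, a difference of 0.77 ± 0.10 (adjusted p = 0.0448). The probe that shares 57 of its bases gave 0.57 ± 0.11 with an adjusted p of 0.0929, also without overlap. The remaining pair lies elsewhere in the locus. It gave -0.50 ± 0.19 at chr4:35796351 (adjusted p = 0.108) and -0.45 ± 0.16 at chr4:35794401 (adjusted p = 0.101), with overlapping groups. Of these 4 probes, the direction thus held for the pair printed above, and the gene as a whole has no single direction here. The CNTF eyes gave 0.38 and 0.66 for that pair, both without overlap but not called. The unnamed probe A_11_P0000040798 (chr10:46990740-46990799) read 1.10 to 1.33 in normal and 1.86 to 2.06 in mutant retina, a difference of 0.77 ± 0.11 (adjusted p = 0.0448).

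The 5 lower probes were dim. Their normal arrays lay between -4.68 and -2.68, and 4 of the probes were not well above background on any mutant array. For such a probe only a bound is known. It sets the normal mean against the mutant arrays' mean of the probe's own value or of the dimmest signal well above background on that array, whichever is higher. Probe A_11_P0000039501 (chr12:17849236-17849295) read -3.33 to -3.0 in normals against -5.25 to -4.49 in mutants and was at least 2.18-fold lower (adjusted p = 0.00616). It stayed called in all 10 fits that left out 1 array, more often than any other called probe. For the 4 probes with no mutant array well above background, the adjusted p values and the calls in such fits rest on mutant values under that mark. All 5 lie in the dimmest of 10 equal bins by level, whose median difference was -0.32. The S100A12-described probe (chr7:46532382-46532441), named for a calgranulin of neutrophils, was at least 1.54-fold lower (adjusted p = 0.0369). The EP3-described probe (chr17:35328629-35328688) was at least 1.23-fold lower (adjusted p = 0.0448) and was well above background on 4 of 5 normal arrays. The LRRC17-described probe read -4.61 to -4.41 in normals and -6.31 to -5.61 in mutants (adjusted p = 0.00919). Its bound fell under 1, so no fold is given. An unnamed probe on chromosome 12 (A_11_P183723, chr12:24154933-24154992) had a difference of -1.76 ± 0.24 (adjusted p = 0.0448) and was well above background on 1 mutant array. None of these 5 met the filter in the CNTF eyes.

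The calls depended on which dogs were in the fit. All 8 probes stayed called without normal dog 1 and without mutant dog 5, and 7 did without mutant dog 1. Without mutant dog 4 the number was 5, without mutant dog 2 or 3 it was 3, without normal dog 2 or 4 it was 2, and without normal dog 3 or 5 it was 1. MAL stayed called in 3 of these 10 fits, CCSER2 in 2 and the LRRC17-described probe in 8. Over these 10 fits the MAL difference lay between 1.67 and 1.98 and that of CCSER2 between 0.73 and 0.80. Neither MAL nor CCSER2 was called under quantile normalization, cyclic loess, the deposited values, slide as a fixed block or array signal level as a covariate. Over all 13 settings other than leaving out a dog, MAL was called in 3 and CCSER2 in 2.

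**Figure D1:**
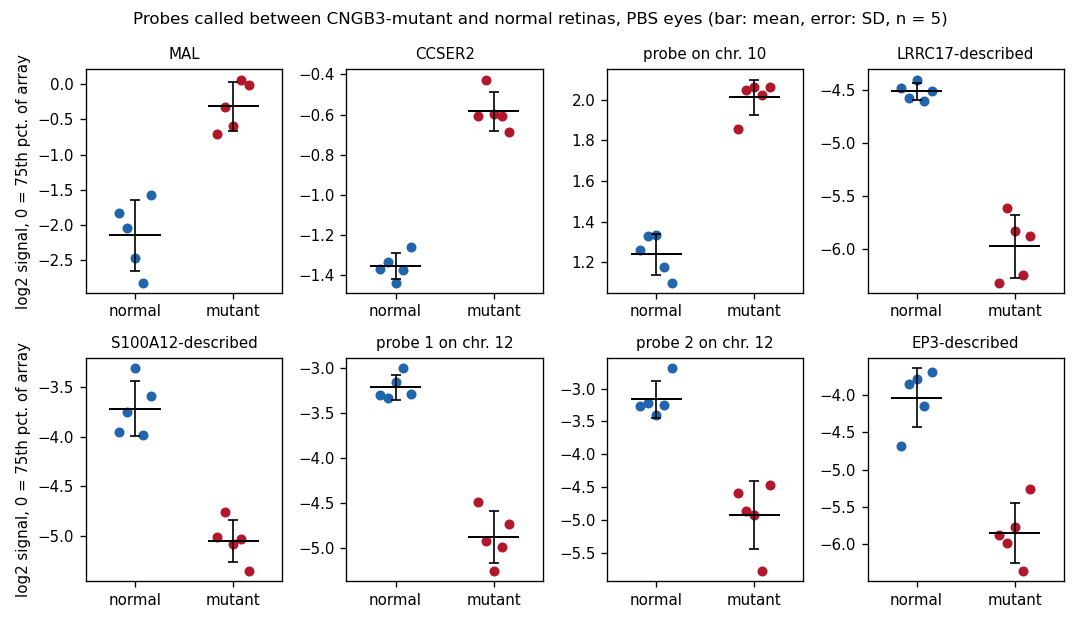
Values of the 8 called probes by genotype, as log2 signal relative to each array's 75th percentile; points are dogs in order 1 to 5, the bar is the mean and the error bar the SD of 5 dogs. In each panel the groups do not overlap, and the lower probes, such as the S100A12-described one, lie at or under -2.68.

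Level on the array went with the sign of the difference. With probes sorted by mean level, the median difference was -0.32 in the dimmest of 10 equal bins, -0.01 in the middle ones and 0.31 in the brightest. Quantile normalization, which forces all arrays to 1 distribution, reduced this range to -0.15 and 0.05. Base composition moved as well: the median was -0.14 for probes with 22 to 24 G or C bases and 0.23 for those with over 33, and under quantile normalization these were -0.15 and 0.24. Saturation adds another limit. Of the tested probes, 100 were saturated on all 10 arrays, and their median difference of 0.40 has the size of the gap in the 75th percentile by which arrays were scaled. No difference is given for such a probe, and list medians below leave out genes saturated on any PBS array.

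**Figure D2:**
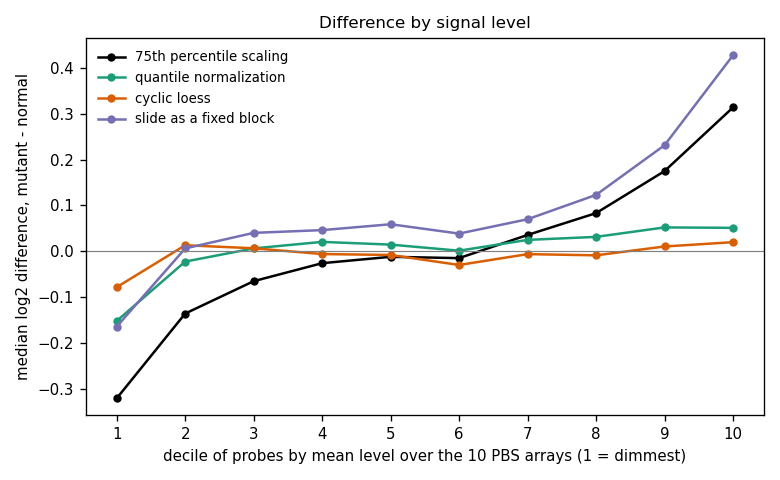
Median log2 difference, mutant minus normal, in 10 equal bins of the 29012 probes ordered by mean level, for the scaling used here and for 3 alternatives. The black line runs from -0.32 to 0.31, and the quantile line from -0.15 to 0.05.

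Among the cone genes GNAT2 stood out by its values, though no member of the list was called (0 of 18 measured, by limma). GNAT2, the cone transducin alpha subunit, read -1.10, -1.04, -0.60, -0.87 and -0.58 in normal dogs 1 to 5 and -1.21, -2.14, -1.92, -1.78 and -1.51 in mutants 1 to 5. The groups did not overlap, as for 5.35% of genes by their highest-signal probe. Its difference was -0.87 ± 0.19 (adjusted p = 0.0929), -0.86 under quantile normalization and -1.18 with slide as a block. With CNTF it was -0.46 (adjusted p = 0.777).

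The channel's own genes came next. CNGB3 was read by a probe at chr29:35752922-35752981, at -0.52, -0.35, -0.05, -0.03 and 0.23 in normals and -0.39, -0.73, -1.25, -0.26 and -0.59 in mutants. The groups overlapped, and the difference was -0.50 ± 0.20 (adjusted p = 0.12). A missense allele does not remove the probed message, so this value does not check the labels. CNGA3, the partner subunit, was not well above background on any of the 10 arrays, and no comparison of it was made.

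The cone pigments went opposite ways in sign. OPN1SW, the short-wavelength opsin, read 1.34 to 1.81 in normals and 0.85 to 1.62 in mutants, a difference of -0.36 ± 0.15 (adjusted p = 0.128). OPN1LW, the long-wavelength opsin on X, read -1.61 to -0.43 in normals and -0.75 to -0.31 in mutants, a difference of 0.68 ± 0.20 (adjusted p = 0.0929). Normal dog 1 alone lay within the mutant range for OPN1LW. With CNTF the OPN1LW difference was -0.07.

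Other steps of cone signalling were measured as well. The catalytic phosphodiesterase subunit PDE6C gave -0.33 ± 0.15 and its inhibitory subunit PDE6H gave -0.23 ± 0.15 (adjusted p = 0.138 and 0.272), and PDE6H gave -0.50 under quantile normalization. ARR3, the cone arrestin whose probe is printed above, read 4.21 to 5.17 in normals and 4.24 to 4.82 in mutants, a difference of -0.01 ± 0.22. Its difference was -1.01 ± 0.29 in the CNTF eyes (adjusted p = 0.544). KCNV2, a potassium channel subunit of rods and cones, gave 0.52 ± 0.16 (adjusted p = 0.0929) but 0.28 under quantile normalization. A probe named THRB, for the thyroid hormone receptor that helps set cone opsin choice, is described only as a cDNA clone. It lies at chr24:25666982-25667039, and its assignment to that gene was not checked. This probe gave -0.44 ± 0.18 (adjusted p = 0.119) and -0.13 with array signal level as a covariate. That covariate gave -0.57 for GNAT2 and -0.26 for CNGB3, and CNGB3 was at -1.02 with the slide block.

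Over the 17 cone genes not saturated on any array the median difference was -0.22, 2 had an unadjusted p under 0.05 in the higher direction and 5 in the lower, and 6 had a positive difference. Among all 10167 genes the shares were 23.4% higher and 11.6% lower, and 55.9% had a positive difference. The counts of each list below stand beside these shares. Normalization moved the cone median to -0.35 (quantile) and the slide block to -0.13. The summed signal of the 16 cone genes with a value on every array ran from 115 to 158 in normals and from 120 to 149 in mutants, in multiples of the array's 75th percentile. These sums overlapped almost wholly. In whole retina, fewer cones and less RNA per cone cannot be told apart.

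**Figure D3:**
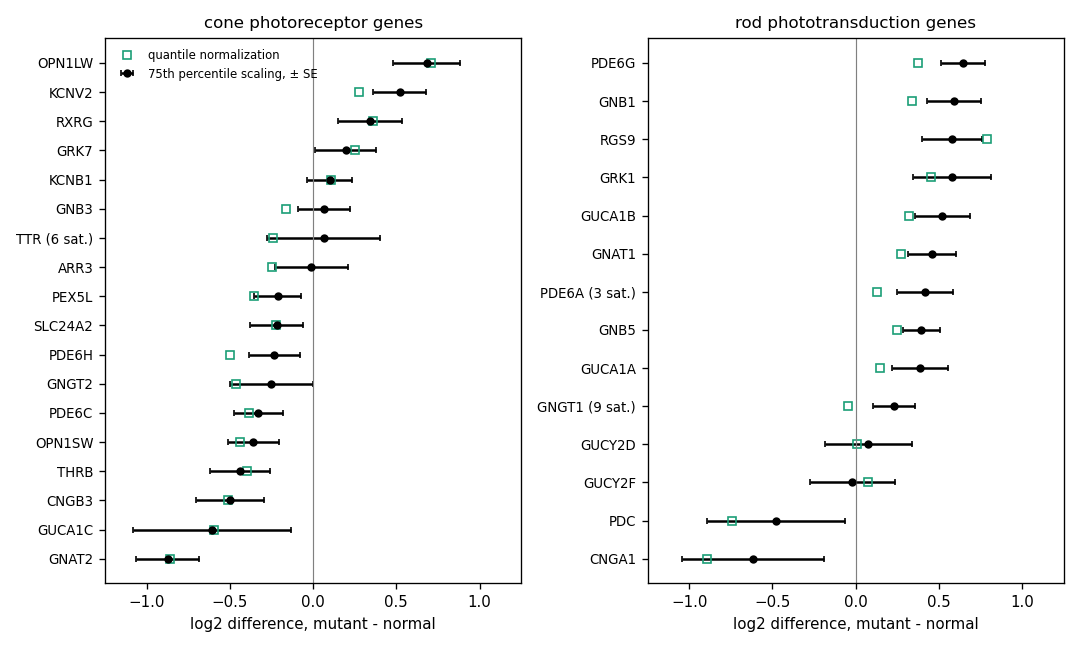
Log2 difference, mutant minus normal, for cone and rod genes under 75th percentile scaling (black, ± SE, 5 dogs a group) and quantile normalization (green squares); "sat." counts saturated PBS arrays, and rod genes saturated on all 10 are left out. GNAT2 lies lowest among the cone genes at -0.87 and OPN1LW highest at 0.68, while most rod genes lie to the right of 0 and move left under quantile normalization.

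Rod genes were bright. PDE6B, a catalytic phosphodiesterase subunit, SAG, the rod arrestin, and RCVRN, recoverin, were saturated on all 10 arrays, so their differences could not be measured. Over the 12 rod genes saturated on no array, the median was 0.43 under the scaling used here, 0.26 under quantile normalization and 0.24 with array signal level as a covariate. Probes of the brightest bin that were never saturated had a median of 0.30. Of these 12 genes 8 had an unadjusted p under 0.05, all higher, and none was called. The summed signal of the 9 rod genes with a value on every array ran from 177 to 203 in normals and from 194 to 276 in mutants, and overlapped.

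PDE6G, the inhibitory subunit of the rod phosphodiesterase, read 5.29 to 5.72 in normals and 5.96 to 6.39 in mutants, without overlap. Its difference was 0.65 ± 0.13 (adjusted p = 0.0929), and 0.38 under quantile normalization. GNAT1, the rod transducin alpha subunit, gave 0.46 ± 0.15 (adjusted p = 0.093), with mutant dog 4 left out because the scanner marked its spot an outlier. It gave 0.27 under quantile normalization and 0.09 in the deposited values. CNGA1, the rod channel subunit, and PDC, phosducin, went the other way at -0.62 ± 0.43 and -0.48 ± 0.41, within wide spreads (adjusted p = 0.307 and 0.397), CNGA1 over 4 normal and 3 mutant dogs. GNB5, which forms a complex with RGS9 to end the light response, read 2.0 to 2.37 in normals and 2.50 to 2.69 in mutants, a difference of 0.40 ± 0.11 (adjusted p = 0.0929). GRK1, a kinase of the rod light response, and GUCA1B, an activator of guanylate cyclase, gave 0.58 ± 0.23 and 0.52 ± 0.17 with overlap. Under quantile normalization GNB5 gave 0.25 and GUCA1B 0.32.

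Of 6 photoreceptor regulators measured, 4 had a positive difference and 3 an unadjusted p under 0.05, all higher. Over all genes 55.9% had a positive difference and 23.4% were higher at that p. The median of the 6 was 0.22, and 0.04 under quantile normalization. NRL and AIPL1 were the 2 without overlap, as were 5.35% of all genes. NRL, the transcription factor that specifies rods, read -0.40 to -0.08 in normals and 0.02 to 0.97 in mutants, a difference of 0.73 ± 0.18. AIPL1, a chaperone for phosphodiesterase, read 0.41 to 1.11 and 1.22 to 2.03, a difference of 0.79 ± 0.18. Both had an adjusted p of 0.0929, and gave 0.73 and 0.74 under quantile normalization, but 0.35 and 0.44 with array signal level as a covariate. With CNTF the differences were -0.13 and 0.01.

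Cilium and transport genes split by sign. The median of the 18 measured was -0.05, with 3 at an unadjusted p under 0.05 in the higher direction and 5 in the lower. CEP290, a transition-zone protein, ranged from -0.21 to 2.41 in normals and from -0.52 to 0.78 in mutants, with normal dogs 1 and 2 inside the mutant range. LCA5, lebercilin, gave -0.79 ± 0.21, and UNC119, a carrier of lipidated transducin, gave 0.50 ± 0.14 without overlap (both adjusted p = 0.0929). UNC119 is bright, and it gave 0.26 under quantile normalization and 0.13 under cyclic loess, while LCA5 gave -1.32 with the slide block. Over all genes the shares at an unadjusted p under 0.05 were 23.4% higher and 11.6% lower. Of 11 ribbon synapse and vesicle genes never saturated, 8 were higher and 1 lower at that p, with a median of 0.38. Under quantile normalization 3 were higher and 1 lower, with a median of 0.24. SV2B, a synaptic vesicle glycoprotein, was the most separate, at -1.90 to -1.45 in normals and -1.18 to -0.90 in mutants, a difference of 0.60 ± 0.12 (adjusted p = 0.0929).

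Müller glia genes resembled rod genes in level and in median. Over 12 never saturated the median was 0.40, and 0.20 under quantile normalization. Of these 12 genes 8 had a positive difference. At an unadjusted p under 0.05, 6 were higher and 1 lower, beside 23.4% and 11.6% of all genes. The lower one was CRYM, taken up below, at -3.99 ± 0.75 with overlapping groups (adjusted p = 0.0929). GLUL, glutamine synthetase, gave 0.60 ± 0.18, SLC1A3, the glial glutamate transporter, 0.64 ± 0.20 and SOX9, a glial transcription factor, 0.66 ± 0.22 (adjusted p from 0.0929 to 0.0932). With signal level as a covariate these were 0.24, 0.29 and 0.35. GFAP, the filament of reactive glia, was well above background on 3 of 5 normal and 2 of 5 mutant arrays and so was not tested. DKK3, a secreted Wnt modulator of Müller glia, gave 0.72 ± 0.22 without overlap, but over 3 normal and 4 mutant dogs, and 0.37 under quantile normalization. Of 10 gliosis genes measured, 2 had an unadjusted p under 0.05, both higher, which is near the 23.4% of all genes that were higher at that p. STAT3, a transducer of cytokine signals including that of CNTF, read -0.15 to 0.43 in normals and 0.42 to 1.23 in mutants, a difference of 0.65 ± 0.18 (adjusted p = 0.0929).

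Immune genes were dimmer than rod or glial genes, and quantile normalization moved their medians less. Of 14 antigen presentation genes 6 had an unadjusted p under 0.05, all higher, beside 23.4% of all genes higher at that p. The median over the 14 was 0.52, 0.48 under quantile normalization and 0.06 with array signal level as a covariate. DLA-DQB1, a major histocompatibility complex class II chain, read -0.98, -1.64, -2.70, -0.80 and -2.95 in normals and -0.31, 0.67, -0.66, -0.66 and -0.37 in mutants. The groups did not overlap, and the difference was 1.55 ± 0.43 (adjusted p = 0.0929). DLA-DRA, another class II chain, gave 1.16 ± 0.36 and CD74, the class II chaperone, 1.05 ± 0.33, with normal dogs 1 and 4 highest among the normals for both. Of the 16 microglia and macrophage genes on the array 8 were measured, and CX3CR1, P2RY12 and TREM2 were among those too dim. TYROBP, a microglial signalling adaptor, gave 0.79 ± 0.25, LAPTM5, a leukocyte lysosomal protein, 1.16 ± 0.35, and PTPRC, the pan-leukocyte antigen CD45, -0.45 ± 0.18. With signal level as a covariate TYROBP gave 0.40 and LAPTM5 0.64, and with the slide block 1.13 and 1.84. The summed signal of the 8 ran from 4.72 to 5.94 in normals and from 6.14 to 8.57 in mutants, without overlap, though 3 of the 8 had a negative difference. Such a gap was not particular to this list. The summed signal of the apoptosis genes, whose median difference was 0.00, ran from 43.6 to 46.5 in normals and from 47.4 to 52.6 in mutants. With CNTF the differences of TYROBP, LAPTM5, CD74 and DLA-DQB1 lay between 0.02 and 0.15.

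Glycolysis genes, which are abundant in photoreceptors, had a median of 0.54 over 13 never saturated and 0.24 under quantile normalization. Of these, 10 had an unadjusted p under 0.05 in the higher direction and 1 in the lower, against 5 and 2 under quantile normalization. PFKP, a phosphofructokinase, read 2.35 to 3.19 in normals and 3.20 to 4.08 in mutants, with no value for mutant dog 1, a difference of 0.91 ± 0.22 (adjusted p = 0.0929). NDUFA4L2, a hypoxia-responsive mitochondrial protein, was the 1 member in the lower direction at that p, at -0.50 ± 0.15, and it gave -0.60 ± 0.14 in the CNTF eyes.

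Of 17 growth factor, 12 cell cycle and 16 immediate early genes, 1 each had groups without overlap: BDNF, MCM2 and IER2. Over all genes 5.35% had no overlap. The medians of the 3 lists were 0.01, 0.06 and 0.17. At an unadjusted p under 0.05, 1, 4 and 6 were higher and 2, 1 and 0 lower, beside 23.4% and 11.6% of all genes. BDNF, a neurotrophin, read -2.51 to -1.91 in normals and -3.36 to -2.66 in mutants, without overlap, a difference of -0.83 ± 0.16 (adjusted p = 0.0929). With CNTF it was -0.09. IGF1, an insulin-like growth factor, gave -0.90 ± 0.30 with normal dog 1 inside the mutant range. Among cell cycle genes, MCM2, a replication helicase subunit, gave 0.91 ± 0.22 without overlap, CDKN1A, the inhibitor p21, 0.93 ± 0.24, and CCNA2, cyclin A, -0.93 ± 0.35. EGR1 and FOS, immediate early genes that respond within minutes to stimulation, gave 1.04 ± 0.35 and 0.86 ± 0.33 (adjusted p = 0.0944 and 0.108). Normal dog 2 was inside the mutant range for both, and normal dog 4 for FOS. With signal level as a covariate IGF1 gave -0.27, CCNA2 -0.19, CDKN1A 0.47 and MCM2 0.53, while EGR1 gave 1.29. IER2, another immediate early gene, gave 0.92 ± 0.24 without overlap (adjusted p = 0.0929).

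Complement and interferon genes were counted next. Of 11 complement genes 10 had a positive difference and 3 an unadjusted p under 0.05, all higher, with a median of 0.37 (0.15 with array signal level as a covariate). Over all genes 55.9% had a positive difference and 23.4% were higher at that p, so the count of 3 is near the share. C1QA, a chain of the first component, gave 0.73 ± 0.22 and the probe named CFB, factor B, 0.80 ± 0.30 (adjusted p = 0.0929 and 0.104). The array describes that CFB probe as similar to complement component 2, and which gene it reads was not checked. Of 13 interferon response genes none had an unadjusted p under 0.05, and the median was 0.05. That list depended on the fit: the median was 0.46 with the slide block, -0.20 with signal level as a covariate and 0.30 without normal dog 1, where 4 of the 13 were called higher.

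Stress and death genes were split. Over all genes 23.4% had an unadjusted p under 0.05 in the higher direction and 11.6% in the lower. Of 17 genes of the unfolded protein and amino acid responses, 6 were higher and 1 lower at that p, with a median of 0.26. Under quantile normalization these counts were 2 and 1, and the median was 0.11 with signal level as a covariate. ASNS, asparagine synthetase, read 0.64 to 1.02 in normals and 1.26 to 1.99 in mutants, a difference of 0.64 ± 0.15, while SEL1L, an adaptor of protein degradation at the endoplasmic reticulum, gave -0.51 ± 0.15 (both adjusted p = 0.0929). Of 18 apoptosis genes 5 were in the higher and 2 in the lower direction at that p, with a median of 0.00. CASP4, an inflammatory caspase, gave 1.00 ± 0.30 without overlap, well above background on 3 normal and 4 mutant arrays.

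Inner retinal genes are those of the cells that photoreceptors drive. For bipolar, amacrine, horizontal and ganglion cell lists the medians were 0.24, 0.11, 0.18 and 0.22, with 1 of 12, 1 of 12, 2 of 6 and 1 of 10 genes in the higher direction at an unadjusted p under 0.05 and 0, 2, 1 and 0 in the lower, beside shares of 23.4% and 11.6% over all genes. Under quantile normalization 3 bipolar genes were in the higher direction and 1 in the lower. GRM6, the glutamate receptor of ON bipolar cells, read -3.08 to -2.60 in normals and -2.56 to -2.39 in mutants, a difference of 0.36 ± 0.12 (adjusted p = 0.0932), and gave 0.45 ± 0.14 with CNTF. Of 11 circadian genes 2 were in each direction. AANAT, the last regulated step to melatonin, gave 0.75 ± 0.22, TEF, a clock output factor, gave 0.85 ± 0.23, and RORA, a nuclear receptor of the clock, gave -0.63 ± 0.22. With signal level as a covariate these were 0.26, 0.56 and -0.26.

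Tissue carried along in the dissection was gauged by marker genes. Of 11 pigment epithelium and melanocyte genes never saturated, 3 had an unadjusted p under 0.05 in the lower direction and 1 in the higher. The summed signal of the 11 ran from 15.9 to 31.6 in normals and from 19.8 to 38.0 in mutants, so the groups overlapped. TYRP1, an enzyme of melanin synthesis, read -3.65 to 0.06 in normals and -5.0 to -2.26 in mutants. RPE65, the isomerase of pigment epithelium, was saturated on 9 of 10 arrays. Of the 9 lens crystallins measured 2 were higher and 3 lower at an unadjusted p under 0.05, and CRYGS gave -1.06 ± 0.30, or -0.34 with signal level as a covariate. Haemoglobin HBD was highest in mutant dogs 3 and 2, at 3.94 and 2.75, and in normal dog 2, at 2.39. The part of these tissues in any result above was not tested.

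**Figure D4:**
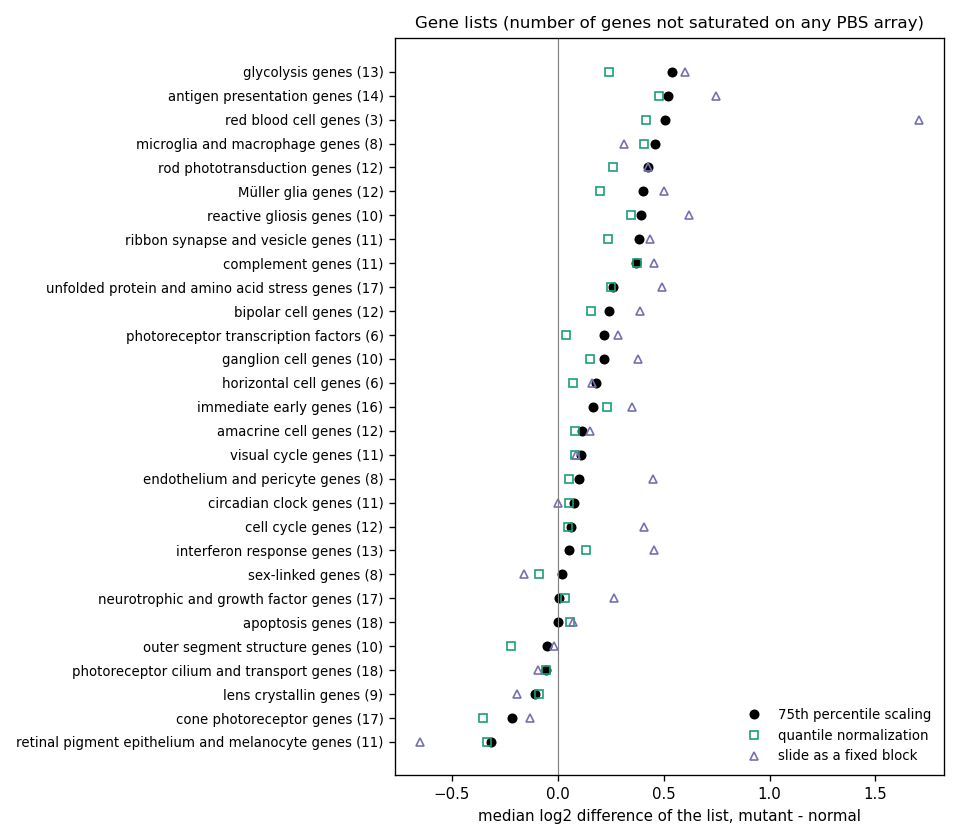
Median log2 difference, mutant minus normal, of 29 gene lists, each over the genes saturated on no PBS array (number in brackets), under 3 settings. Antigen presentation lies at 0.52, rod genes at 0.43 and cone genes at -0.22; rod, Müller and glycolysis medians fall toward 0 under quantile normalization.

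Among genes whose groups did not overlap, the smallest unadjusted p values named further candidates on both sides, all short of the threshold. On the higher side FNDC8, a fibronectin-domain protein, gave 1.26 ± 0.18, PBXIP1, a partner of PBX factors, 1.91 ± 0.30 and KIF1A, an axonal kinesin, 1.77 ± 0.29. Their adjusted p values were 0.0602, 0.0622 and 0.0689. A second KIF1A probe, on an unplaced sequence, gave 0.37 ± 0.25 with overlapping groups. FH, the mitochondrial fumarate hydratase, read 0.07 to 0.55 in normals and 0.77 to 1.16 in mutants. Metabolic enzymes in this set were ECHDC2 at 1.01 ± 0.18 and SORD, sorbitol dehydrogenase, at 0.66 ± 0.13. The rest of the 12 were the other MAL probe, ASB9, LARP6, SLC26A6, PTK7 and RSPH9, between 0.65 and 1.94.

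On the lower side KBTBD10, a Kelch-repeat protein, read -0.50 to -0.04 in normals and -1.60 to -1.07 in mutants, a difference of -0.98 ± 0.14 (adjusted p = 0.060). Its second probe gave -0.68 ± 0.14, also without overlap. ACOX2, a peroxisomal oxidase of branched-chain and bile acid intermediates, read -1.61, -1.23, -0.89, -0.34 and -0.90 in normals and -2.83, -2.49, -2.05, -2.35 and -2.94 in mutants (difference -1.54 ± 0.24, adjusted p = 0.0622). PGAP1, a deacylase of lipid-anchored proteins, gave -0.92 ± 0.15 and MSL2, a ubiquitin ligase, -0.75 ± 0.13, each at an adjusted p of 0.0689. HOMER2, a postsynaptic scaffold protein, gave -0.89 ± 0.17 (adjusted p = 0.0929). PSCA, FRRS1 and OR13C7F were not well above background on any mutant array and were at least 1.16-fold, 1.25-fold and 1.05-fold lower. The remaining members were OR1E1, BDNF, CORO6 and CER1, between -1.05 and -0.57.

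The CNTF eyes gave a second measurement of the same dogs on other arrays, 8 of which were on slides without a PBS array. Slide followed genotype there too, except on slide 4. Normal CNTF arrays 1 and 2 lay on slide 3, and mutant CNTF arrays 2 to 5 on slide 5. Slide 4 held normal CNTF arrays 3 to 5 with mutant CNTF array 1. Of 181 probes with an unadjusted p under 0.001 in PBS eyes that were also tested in CNTF eyes, 142 (78.5%) had the same sign there and 42 (23.2%) also had an unadjusted p under 0.05. Over all 25280 probes tested in both, 43.9% had the same sign. Among CNTF eyes 5.73% of probes had an unadjusted p under 0.05, and 3 (0.0117%) were called. Of the 8 probes called in PBS eyes, 3 were tested in CNTF eyes, all with the same sign and none called. The unnamed probe A_11_P0000040798 gave only 0.14 ± 0.14 there with overlapping groups, against 0.77 in PBS eyes. HOMER2 was called in the CNTF eyes (-0.97 ± 0.12, adjusted p = 0.0339), where normals read -2.63 to -2.19 and mutants -3.60 to -3.23. ACOX2 gave -1.20 ± 0.18 there, again without overlap (adjusted p = 0.0622). HOMER2 and ACOX2 were picked out here after their CNTF values were seen, so their recurrence is no further support. Among the rest of the 181, PGAP1 and ASB9, named above, had the opposite sign in CNTF eyes, at 0.12 ± 0.27 and -0.37 ± 0.25.

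The largest differences that recurred belonged to CRYM and to a stretch of the X chromosome. These and the genes in the next 2 paragraphs were chosen after their values were seen. They came from 25 probes (0.0989% of those tested in both eyes) with an unadjusted p under 0.001 in PBS eyes, under 0.01 in CNTF eyes and the same sign. Their recurrence in the CNTF eyes was thus part of the choice and is no further support. CRYM, mu-crystallin, which binds thyroid hormone in the cytosol, read 2.99, 0.46, 1.96, 2.23 and 2.06 in normals and -2.98, -2.29, -3.17, -3.44 and 0.84 in mutants (A_11_P0000024758, chr6:27231793-27231852). The difference was -4.15 ± 0.75 (adjusted p = 0.0928), or -4.91 without mutant dog 5 (adjusted p = 0.00486). The dog left out there was picked because its value stood apart, so that second p is no support. Mutant dog 5 lay above normal dog 2. In the CNTF eyes the same 2 dogs again stood apart, at 1.06 and 1.23, between the other normals (3.46 to 3.89) and the other mutants (-3.30 to -2.56). The second CRYM probe gave -3.99 ± 0.75.

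TKTL1, a transketolase-like gene, was read by a probe at chrX:125077810-125077869, which gave 0.86, 0.03, -2.46, -1.92 and 0.41 in normals and -4.60, -6.34, -6.12, -6.73 and -2.44 in mutants. Mutant dog 5 and normal dog 3 lay next to each other. The difference was -4.63 ± 0.87 (adjusted p = 0.0929), and the probe was well above background on 1 of 5 mutant arrays. A probe that starts beyond its end, at chrX:125078534-125078593, gave -4.84 ± 1.00 with a like order of dogs. Another TKTL1 probe, at chrX:125063271-125066803, gave only -0.54 ± 0.16 with overlapping groups. With CNTF the 3 differences were -5.39, -5.78 and -0.51. OPN1LW lies at chrX:125026905-125028198, on the same part of X.

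ATP4A, the gastric proton pump subunit, read -1.69 to -1.31 in normals and 0.51, 1.02, 0.19, 0.93 and -1.43 in mutants. The difference was 1.71 ± 0.39, or 2.13 without mutant dog 5 (adjusted p = 0.00486). Here too the dog left out was picked by its value, so that p is no support. With CNTF ATP4A gave 1.86 ± 0.30, with mutant dog 5 again the lowest mutant. MSRB3, a methionine sulfoxide reductase whose probe is printed above, read 1.37 to 1.54 in normals and 1.69 to 2.29 in mutants, a difference of 0.62 ± 0.13. A neighbouring transcript at chr10:11027293-11027352 gave 0.84 ± 0.12, and in the CNTF eyes the pair gave 0.78 ± 0.12 and 0.74 ± 0.10, each without overlap. A transcript from a cornea library (A_11_P0000018202) was not well above background on any normal array and was on 4 of 5 mutant arrays. It was at least 3.1-fold higher in mutants (adjusted p = 0.0929). Mutant dog 2 was low in both eyes, at -5.26 and -5.70.

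**Figure D5:**
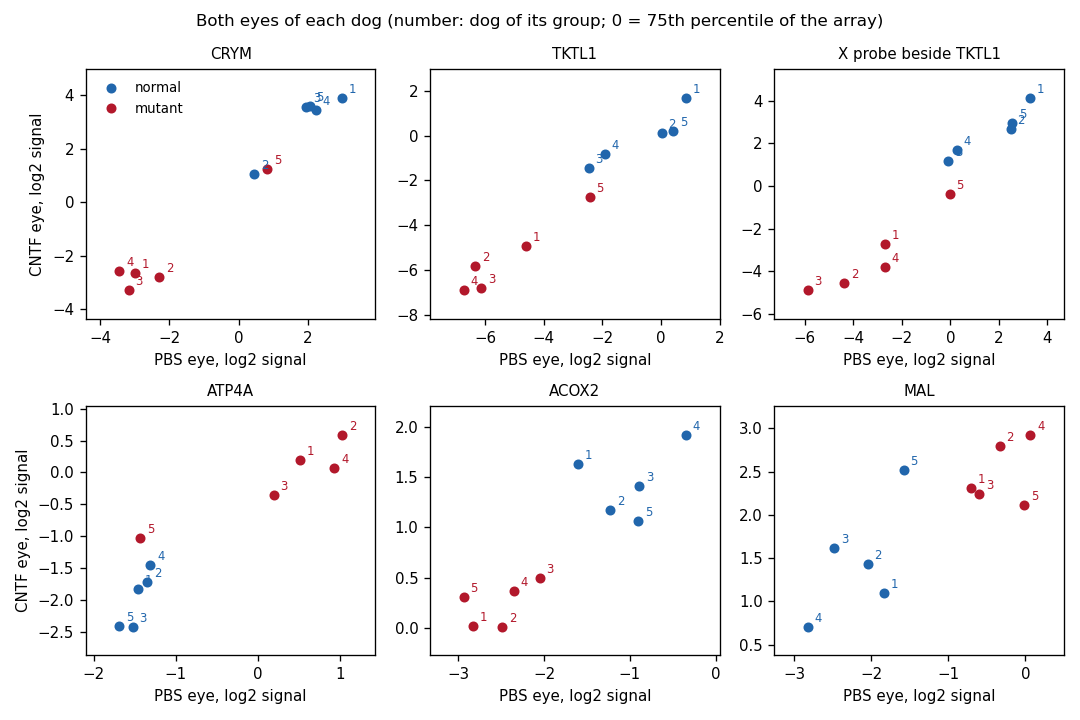
Log2 signal in the CNTF eye against the PBS eye of each dog for 6 probes, relative to each array's 75th percentile, with the dog's number beside its point. For CRYM, mutant dog 5 and normal dog 2 lie together between the groups in both eyes, and for ATP4A mutant dog 5 lies nearest the normals.

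Sex differed between the groups, and the X chromosome was therefore counted apart. None of its 858 probes was called, against 8 (0.0293%) of 27323 on other placed chromosomes, and 35.2% had an unadjusted p under 0.05, against 35.1% elsewhere. On chromosome 29, which holds CNGB3, 31.9% of 307 probes had an unadjusted p under 0.05 and 6 (1.95%) had one under 0.001, against 0.938% of all probes. ZFX, an X-linked zinc finger gene, was well above background on 1 of 5 mutant arrays and gave -1.75 ± 0.57, with normal dog 3 high at -1.12, and -0.83 among males. KDM6A, an X-linked demethylase that escapes inactivation in other mammals, gave 0.39 ± 0.17, and 0.04 among males. Among male dogs only, 5 normal and 2 mutant, the differences of MAL, GNAT2, BDNF, CRYM and TKTL1 were 1.83, -0.66, -0.76, -5.15 and -5.05.

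One normal array governed the number of calls. Without normal dog 1, 6490 probes (22.4%) were called in place of 8, and 88 of 349 list genes in place of 0. Without normal dog 3, the only CNGB3+/+ dog, mutants were compared with carriers alone, and 1 probe was called. The fit without dog 1 called 6 of the 12 never-saturated rod genes higher, 9 of 13 glycolysis genes higher and 7 of 14 antigen presentation genes higher. It called 3 of 17 cone genes higher and 1 lower. Over all never-saturated genes it called 16.1% higher and 7.05% lower. The median went from 0.43 to 0.51 for rod genes, from -0.22 to -0.16 for cone genes, from 0.52 to 0.70 for antigen presentation and from 0.05 to 0.30 for interferon response genes. Without mutant dog 2 the gliosis median went from 0.39 to 0.20 and the cone median to -0.13.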

How the data were processed

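Scanner files of 20 single-colour arrays were deposited, made with Agilent Feature Extraction 9.5.3.1 per the submitters' processing notes, which also name Partek 6.4. Per the file headers they hold the processed signal as intensity, background-subtracted, with flags for background, saturation and outlier spots. A deposited table holds the authors' log2 values of the same arrays, with scaling steps not given in the sources used here.

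The log2 of processed intensity minus each array's 75th percentile was taken, and spots of 1 probe were averaged after outlier spots were dropped. Probes had to be well above background in 4 or more of the 5 dogs of a genotype and to have 3 or more values in both. They were fitted with limma 3.58.1 (R 4.3.3), 5 mutant against 5 normal dogs, unpaired, with Benjamini-Hochberg adjustment. The fit was tested on simulated data. Array levels were compared by exact permutation over 252 splits (Python 3.11.15). The number of arrays, 5 a group, limits precision. A gene was read by its highest-signal probe. Symbols came from the array files, updated through RefSeq (assembly UU_Cfam_GSD_1.0), of which no coordinate was used. Genes named were the 12 smallest p in each direction without overlap, the first 4 of each list by adjusted p, CNGB3-related and sex-linked genes, and probes chosen after values were seen, as stated. Members and the 29 lists were chosen with earlier results of these data known. Alternatives covered normalization, background, filters, slide, signal level, sex, the deposited values and each left-out array. The setting restricted to slide 2 is the slide block's own estimate.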

Additional observations from a re-analysis of the deposited data

Results flagged for a closer look

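In groups of 5 dogs, a value was singled out where its gap to the nearest other dog was large against the range of the group. Of 131 groups tested, 10 (7.6%) had such a value, and chance gives about 1 in 20. Mutant dog 5 was high for CRYM, at 0.84 on 1 probe and 0.94 on the other, while the other mutants lay between -3.44 and -2.12. The same dog was high for the lens-library transcript A_11_P0000017755, at -0.29 against -1.39 to -1.10. Mutant dog 2 was high for FNDC8, at -1.20 against -1.71 to -1.62, and for SLC26A6, at -1.43 against -2.30 to -2.13. It was low for MSL2, at -3.51, and for A_11_P0000018202, at -5.26 against -3.01 to -2.17. Mutant dog 3 was high for PSCA, at -4.58, on arrays where this probe was not well above background. Mutant dog 1 was low for the called probe A_11_P0000040798, at 1.86 against 2.02 to 2.06. Normal dog 5 was high for the called probe A_11_P183723, at -2.68 against -3.40 to -3.22.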

How the results depend on the processing

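The count of called probes was 8. It was 1 under quantile normalization, the deposited values, cyclic loess (added after seeing the data) and slide as a fixed block, 2 under normexp, 4 with no filter and 0 with a filter on all 10 arrays, where 8887 had an unadjusted p under 0.05. It was 0 with array signal level as a covariate (2227 at an unadjusted p under 0.05), 9 with sex as a covariate, 32 in males, 61 with all 20 arrays in the fit and 10111 with slide as a random block, whose estimated correlation was -0.179. Leaving out 1 array gave 1 to 6490: 46 without mutant dog 5, 23 without mutant dog 1, 11 without mutant dog 3, 10 without mutant dog 4, 5 without mutant dog 2, 3 without normal dog 2, 2 without normal dog 4 and 1 without normal dog 5. Called list genes numbered 133 with the random block, 1 in males and 2 with all 20 arrays, and 0 to 88 with 1 array left out. Called genes among those named numbered 30, 2 and 11 in these settings, 1 with sex as a covariate and 0 to 28 with 1 array left out. Of the 8 probes, 2 stayed called with sex as a covariate, 3 in males, 6 with all 20 arrays and 8 with the random block. With slide as a fixed block 0 stayed called, and the 1 probe called there was another. All 8 probes kept their sign in each setting that tested them, except the LRRC17-described probe A_11_P0000021508, at 0.10 under normexp (adjusted p 0.575). Normexp moved the median of all probes by 0.13, and the share of higher differences among those at an unadjusted p under 0.05 from 58.8% to 75.3%; it was 27% with signal level as a covariate, 47.4% in males and 68.2% with no filter. The gap in array signal level was -0.49 to -0.28 with 1 array left out, with an exact p between 0.0159 and 0.0794. The cause of these changes was not tested. Whether the replicate numbers mark anything shared between the genotypes is not stated. Same-numbered arrays correlated between -0.31 and 0.31, and the same number was the best match for numbers 2 and 5 only. The replicate block called 0 probes (limma), with 8696 at an unadjusted p under 0.05.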
